A study of Mus musculus with 6 samples.

Results

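Ribosome footprints were followed on 6 genes of the vitamin K cycle and of vitamin K-dependent carboxylation: Ggcx, Vkorc1, Vkorc1l1, Calu, Gas6 and Pros1. They were taken by symbol from the table of raw counts, where each symbol occurred once among 21652 listed genes, and 5 of the 6 had enough counts to be tested; Gas6 did not. Ggcx was already known to be one of the few genes called between the groups, and the other 5 were joined to it by function. The values below that compare the groups are therefore descriptions, and the calls on these 6 genes give no independent support.

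Vitamin K-dependent carboxylation takes place in the endoplasmic reticulum (ER), where gamma-glutamyl carboxylase turns glutamate residues of secretory proteins into gamma-carboxyglutamate (Gla), which binds calcium. Each carboxylation oxidises vitamin K hydroquinone to the epoxide, and the epoxide reductases return it to the reduced forms in a cycle that warfarin blocks. The pathway is best known from hepatic clotting factors, and it also acts in pancreatic beta cells, where carboxylation has been tied to calcium handling.

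The data are 6 ribosome profiling libraries of MIN6, a mouse insulin-secreting line from a beta-cell tumour, in which fragments protected by ribosomes from RNase I were sequenced. In 3 libraries the cells expressed sgNT, which is read here as a guide without a target, and in 3 they expressed sgLTN1, a CRISPR guide against Ltn1, the gene of the ribosome-associated ubiquitin ligase Listerin. The groups share the cell line, the handling and 1 batch label; whether the cells were a clone or a pool, and whether replicate libraries stem from different cultures, is not given in the sources used here, so p-values measure a spread between libraries that may be technical. Footprints reflect both the amount of an mRNA and its occupancy by ribosomes, and in bulk lysates fewer cells with a transcript and less of it per cell cannot be told apart.

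Library totals ran from 4373467 to 11198735 counts, and 12782 genes were tested. Counts of sgLTN1 library 3 differed most from those of its group, since chi-square divided by its degrees of freedom was 7.11 and 5.27 against sgLTN1 libraries 1 and 2 and 2.55 to 4.41 in the other replicate pairs; this measure grows with depth. Without that library the log2 fold change of Ggcx was 0.36. Ltn1, the target of the guide, read 143, 145 and 141 CPM (counts scaled to a common library size) in sgNT and 65.3, 71.5 and 64.9 CPM in sgLTN1. Of 9 beta-cell markers 8 were tested, with a summed level of 122773 to 135104 CPM in sgNT and 125268 to 145911 CPM in sgLTN1, while the glucose transporter gene Slc2a2 stayed at 0 to 1.52 CPM. The 6 markers of other islet cells summed to 585 to 616 CPM in sgNT and 582 to 661 CPM in sgLTN1, most of it Gcg at 562 ± 14.5 and 566 ± 34.7 CPM. The hormone genes Sst (30.4 ± 1.42 and 43.3 ± 3.65 CPM, 0.50 on the log2 scale, edgeR adjusted p = 0.0620) and Ppy (3.30 ± 1.07 and 6.09 ± 1.02 CPM, 0.82, edgeR adjusted p = 0.176) were not called, but had all sgLTN1 libraries above all sgNT libraries. The sums of 6 acinar and duct markers did not overlap, at 1887 to 2028 CPM in sgNT and 2067 to 2220 CPM in sgLTN1, nearly all of it Spp1 (log2 fold change 0.12, edgeR adjusted p = 0.332), with the other 5 at group means under 1 CPM. The sums of 7 fibroblast, endothelial and immune markers did not overlap either. They were 39.0 to 45.6 CPM in sgNT and 34.3 to 37.4 CPM in sgLTN1. Most of this was Cd68, at 30.4 ± 3.88 and 26.4 ± 1.71 CPM, which itself overlapped between the groups. The 3 tested markers of this list were lower, with a median log2 fold change of -0.44 and none called in edgeR. Ptprc, Cdh5 and Pecam1, at group means under 1 CPM, were higher in sgLTN1. Hepatocyte markers summed to 4.81 to 9.06 CPM in sgNT and 5.43 to 8.63 CPM in sgLTN1. No marker was at 0 in all 6 libraries, and the part of these levels in the results below was not tested.

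The carboxylase, the main epoxide reductase and calumenin were measured with 3809 to 8805 counts each over the sgNT libraries, whereas the ligand genes Gas6 and Pros1 held 14 and 151 counts there. Footprints on Ggcx were 1.27-fold higher in sgLTN1, Vkorc1, Calu and Vkorc1l1 lay between 1.09-fold and 1.15-fold above the control without passing the test, and Pros1 lay at 0.864 of it. Of the 5 tested genes 4 had a log2 fold change above 0, and their median was 0.13, where 47.3% of all tested genes were above 0 with a median of -0.02. Past an adjusted p of 0.05 stood 1 of the 5, Ggcx, beside 0.180% of all tested genes (23 genes) and 0.0861% for rises alone. In 3 of the 5 all sgLTN1 libraries lay above all sgNT libraries, a separation in that direction that 10.1% of tested genes showed. Because the group was formed with this contrast known, nothing is read from these shares.

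**Figure D1:**
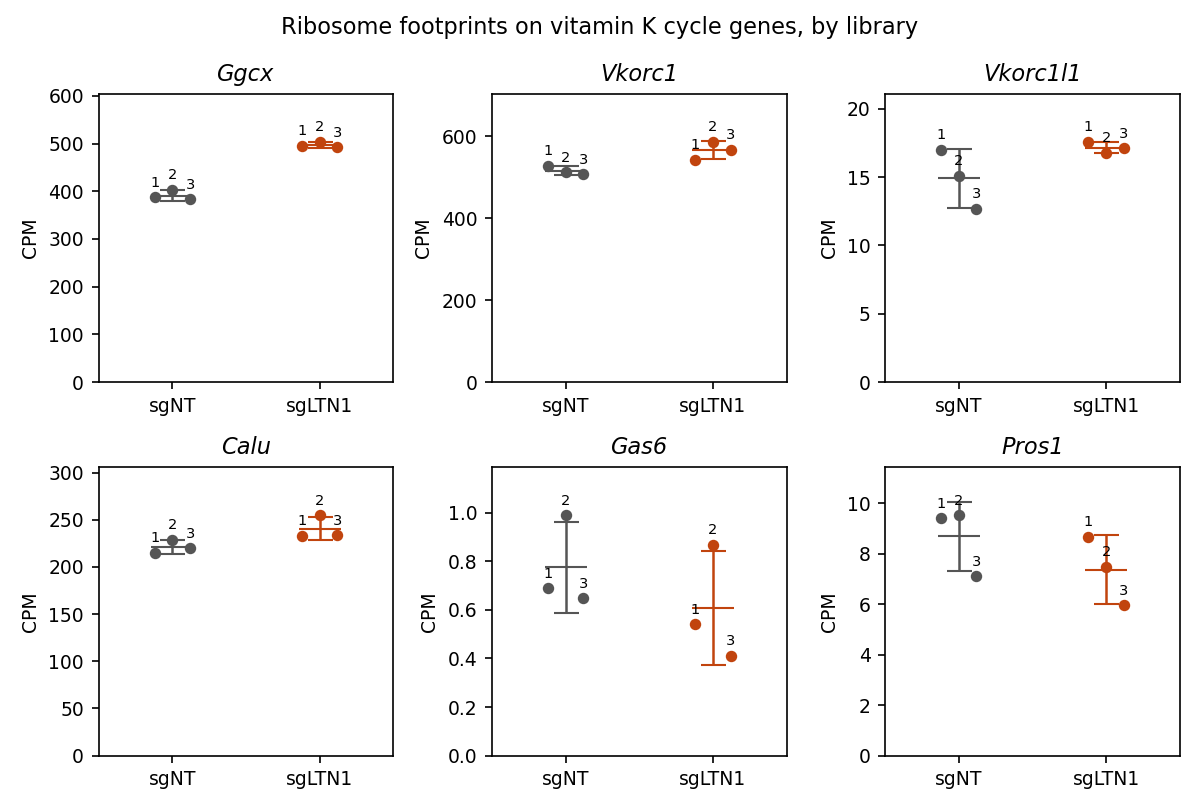
Footprint level in CPM (vertical axis, starting at 0, with its own scale in each panel) of the 6 genes in each library of sgNT and sgLTN1. Points are libraries 1 to 3, the wide bar is the group mean and the capped line the SD over 3 libraries; for Ggcx the sgLTN1 libraries sit between 492 and 504 CPM, above the sgNT libraries at 383 to 403 CPM.

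Ggcx (ENSMUSG00000053460.9) encodes the carboxylase itself, an integral ER membrane enzyme. Its counts were 1687, 3259 and 1776 over the control libraries, in the order of their numbers, and 5482, 4640 and 2392 over the sgLTN1 libraries. Scaled for library size, these were 387, 403 and 383 CPM against 495, 504 and 492 CPM. All sgLTN1 libraries were high, the groups were far from overlapping, and the libraries within a group lay close together. The mean rose from 391 ± 10.7 to 497 ± 6.37 CPM (SD, n = 3 per group).

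The spread of Ggcx between libraries was about what counting alone gives. Its coefficient of variation was 2.73% in sgNT, where counting noise accounts for 2.20%, and 1.28% in sgLTN1, where counting noise accounts for 1.65%. The log2 fold change was 0.34 (SE 0.05, 95% interval 0.22 to 0.47), and edgeR's quasi-likelihood fit, with p-values adjusted over all genes by Benjamini-Hochberg, gave adjusted p = 0.0391. The authors' deposited table of DESeq2 gave 0.37 (SE 0.08) with adjusted p = 0.000353. Only 2697 genes had an adjusted p there, against 12782 in the edgeR fit, and 8.42% of the 2697 were called. Vkorc1l1, Gas6 and Pros1 had no adjusted p there.

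The Ggcx difference kept its size with any 1 library left out, but its call was lost in 5 of the 6 such fits. Leaving out 1 library gave log2 fold changes between 0.33 and 0.38. The adjusted p rose to 0.109, 0.0843 and 0.105 without sgNT library 1, 2 or 3, and to 0.234 and 0.306 without sgLTN1 library 1 or 2. Without sgLTN1 library 3 the call was kept, at adjusted p = 0.0178. Scaling by total counts alone lowered the log2 fold change to 0.27 (adjusted p = 0.0794).

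Fold changes moved with abundance: tested genes at or above 256 CPM had a median log2 fold change of 0.14, and those below it -0.02. Ggcx and Vkorc1 belong to the first class and Calu lies just under it. With this trend of fold change with abundance removed, Ggcx stood at 0.24 (adjusted p = 0.0816), Vkorc1 at 0.02 and Calu at 0.05 on the log2 scale. The less abundant Vkorc1l1 stood at 0.22 and Pros1 at -0.17. Removing the trend took away most of the difference for Vkorc1 and Calu and a smaller portion of it for Ggcx.

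**Figure D2:**
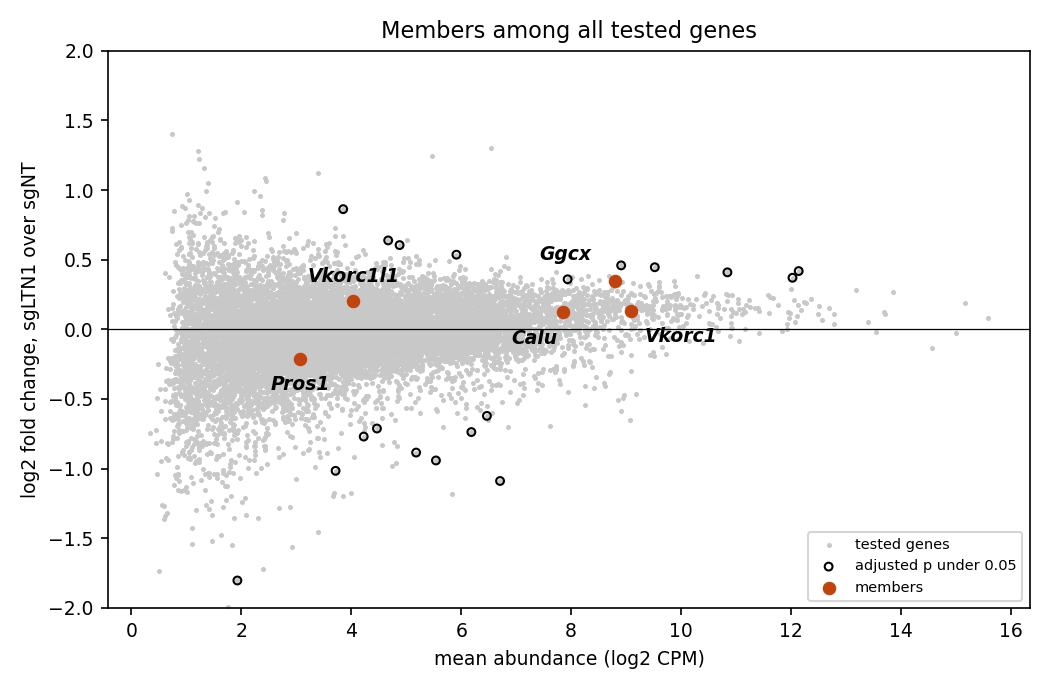
Mean abundance (log2 CPM, horizontal) against the log2 fold change of sgLTN1 over sgNT (vertical) for the tested genes, with genes past an adjusted p of 0.05 ringed and the 5 tested genes of the vitamin K cycle filled; 7 tested genes lie outside the plotted range. Ggcx at 0.34 lies near the upper edge of genes of its abundance, while Vkorc1 at 0.13 and Calu at 0.12 lie inside the cloud.

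**Figure D3:**
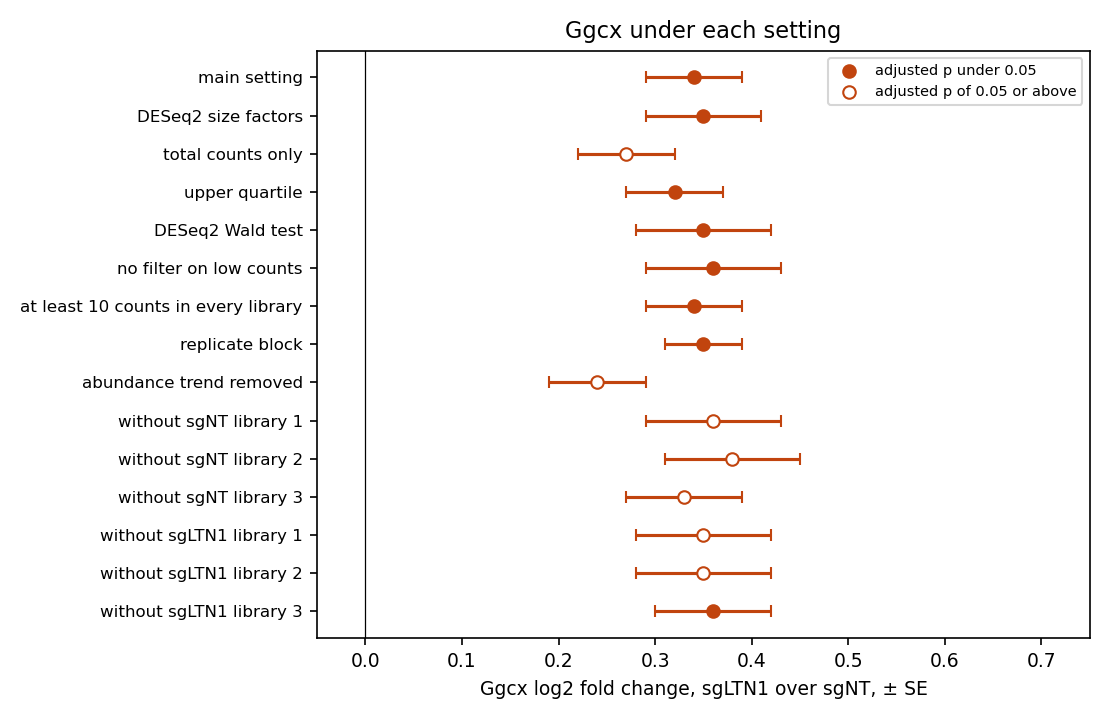
Log2 fold change of Ggcx with its SE (horizontal axis) under each processing setting and with each library left out. Filled points have an adjusted p under 0.05; all values lie between 0.24 and 0.38, and open points mark the settings in which the call was lost.

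Vkorc1 (ENSMUSG00000096145.3) encodes the vitamin K epoxide reductase that warfarin inhibits. Its counts were 2304, 4145 and 2356 in sgNT and 6014, 5404 and 2757 in sgLTN1. As levels these were 528, 513 and 508 CPM against 543, 587 and 567 CPM, so that the groups were separate but only 543 against 528 CPM apart at their nearest libraries. The means were 516 ± 10.4 and 565 ± 22.0 CPM. The log2 fold change of 0.13 (SE 0.06, 95% interval 0.01 to 0.25) did not pass over all genes (edgeR adjusted p = 0.294), and the interval allows a fold between 1.01 and 1.19.

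Vkorc1l1 (ENSMUSG00000066735.9) encodes the paralogous reductase, which can also support the cycle. It held 74, 122 and 59 counts in sgNT and 195, 155 and 83 in sgLTN1, equal to 17.0, 15.1 and 12.7 CPM and to 17.6, 16.8 and 17.1 CPM. The sgLTN1 libraries were tight and the sgNT libraries spread, with sgNT library 1 inside the sgLTN1 range. The log2 fold change was 0.20 (SE 0.12, 95% interval -0.06 to 0.46, edgeR adjusted p = 0.443). It was 0.30 without sgNT library 1 and 0.12 without sgNT library 3. A rise as large as that of Ggcx therefore lies inside the interval, as does no change.

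Calu (ENSMUSG00000029767.17) encodes calumenin, a calcium-binding protein of the ER lumen that is known to bind the carboxylase and to lower its activity. Its counts were 940, 1849 and 1020 in sgNT and 2586, 2351 and 1138 in sgLTN1. Levels were 215, 229 and 220 CPM against 233, 255 and 234 CPM, separate between groups by a narrow margin. The log2 fold change was 0.12 (SE 0.06, 95% interval -0.02 to 0.26, edgeR adjusted p = 0.394), and it was 0.04 with scaling by total counts.

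Ratios of counts within a library do not depend on how libraries are scaled. Ggcx over Vkorc1 was 0.732, 0.786 and 0.754 in sgNT and 0.912, 0.859 and 0.868 in sgLTN1. Ggcx over Calu was 1.79, 1.76 and 1.74 against 2.12, 1.97 and 2.10. In both ratios every sgLTN1 library was above every sgNT library, by 1.16-fold and 1.17-fold at the mean. Ggcx over the scarcer Vkorc1l1 overlapped between the groups. It was 22.8, 26.7 and 30.1 in sgNT and 28.1, 29.9 and 28.8 in sgLTN1, 1.09-fold at the mean. Vkorc1 over Vkorc1l1 overlapped as well, at 35.0 ± 4.49 and 33.0 ± 2.02. Calu over Vkorc1 overlapped between the groups, at 0.429 ± 0.0193 and 0.426 ± 0.0117. Coding lengths were not used here, so these ratios give changes between libraries and no order of levels between the genes. They come from the contrast that the group of genes was chosen on and were given no test.

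Upstream sequence is shown for the 3 genes whose libraries separated between the groups, as the sequence context of the genes that stood above the control in every sgLTN1 library. The lines hold the bases from 250 before the RefSeq transcript start to the annotated edge of the gene, 5′ to 3′ on the strand of the gene, in build GRCm38.p6, with CCAAT and GGGCGG on either strand in capitals.
Ggcx, chr6:72414058-72414278, strand plus: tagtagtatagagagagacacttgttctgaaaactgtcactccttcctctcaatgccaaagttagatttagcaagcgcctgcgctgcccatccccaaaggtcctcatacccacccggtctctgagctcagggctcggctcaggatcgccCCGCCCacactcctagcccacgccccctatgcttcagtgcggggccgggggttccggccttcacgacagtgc
Vkorc1, chr7:127895659-127895867, strand minus: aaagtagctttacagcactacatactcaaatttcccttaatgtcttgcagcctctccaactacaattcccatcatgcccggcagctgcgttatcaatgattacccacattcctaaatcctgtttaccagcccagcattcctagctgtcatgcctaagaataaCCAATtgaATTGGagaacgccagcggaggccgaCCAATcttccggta
Calu, chr6:29347856-29348105, strand plus: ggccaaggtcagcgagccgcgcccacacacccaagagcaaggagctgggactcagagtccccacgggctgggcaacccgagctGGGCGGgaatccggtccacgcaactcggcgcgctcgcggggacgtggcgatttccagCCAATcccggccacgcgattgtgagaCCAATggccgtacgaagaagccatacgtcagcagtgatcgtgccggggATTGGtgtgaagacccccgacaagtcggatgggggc
Over the 250 bases before the start, CCAAT in either orientation was found 3 times each for Vkorc1 and Calu, 1 time for Vkorc1l1 and not for Ggcx, Gas6 or Pros1; 33.8% of 32851 RefSeq windows of that length, of all gene classes, held it. GGGCGG was found for all 6 genes and in 32.7% of windows. The 1 match for Vkorc1 is not within the line shown, which stops at the annotated edge of the gene. None of the 6 held TATAAA (12.4% of windows) or the C/EBP-ATF response element TGATGNAA (3.45%). A match of letters is not a binding site, and footprint counts do not measure promoter activity.

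The substrates among the 6 genes are a pair of related secreted ligands with an amino-terminal Gla domain. Gas6 (ENSMUSG00000031451.7), the growth arrest-specific ligand of the TAM receptor tyrosine kinases, held only 3, 8 and 3 counts in sgNT and 6, 8 and 2 in sgLTN1. These are 0.688, 0.990 and 0.647 CPM against 0.542, 0.869 and 0.411 CPM, which overlap. The ratio of its summed counts, sgLTN1 over sgNT, was 0.776 with 0.355 and 1.72 as the bounds of the exact 95% interval for counting error, so no difference of the size seen for Ggcx was detectable at this depth.

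Pros1 (ENSMUSG00000022912.9) encodes protein S, an anticoagulant cofactor and TAM ligand. It held 41, 77 and 33 counts in sgNT and 96, 69 and 29 in sgLTN1. Levels of 9.40, 9.53 and 7.12 CPM overlapped with 8.67, 7.49 and 5.96 CPM, and library 3 was the lowest of both groups. The log2 fold change was -0.21 (SE 0.18, 95% interval -0.61 to 0.19, edgeR adjusted p = 0.636), and it was -0.35 without sgLTN1 library 1, -0.31 without sgNT library 3 and -0.11 without sgNT library 2 or sgLTN1 library 3.

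Genes of other Gla proteins were mostly too low to test. Of 15 further genes of this class, 12 were too low to be tested, with between 2 counts over all 6 libraries (Ucma) and 49 (Bglap3). The clotting factor genes F2, F7, F9 and F10, hepatic substrates of the carboxylase, held 37 counts together in sgNT and 34 in sgLTN1, with 0 to 6 counts per gene and library. Reads of Bglap, Bglap2 and Bglap3, near-identical osteocalcin copies, can be exchanged between them. None of the 3 tested genes passed. Prrg2, a transmembrane Gla protein, read 14.7 ± 1.16 and 16.4 ± 2.48 CPM (0.15, SE 0.14). Its relative Prrg4 was scarce, with 31 counts in sgNT and 30 in sgLTN1. It read 1.86 ± 0.443 and 1.12 ± 0.312 CPM (-0.62, SE 0.36, edgeR adjusted p = 0.440).

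Among the TAM receptors, which bind Gas6 and protein S, Axl and Mertk were too low to be tested at 58 and 29 counts over the 6 libraries. Tyro3 was measured at 8.25, 7.55 and 7.12 CPM in sgNT and 10.1, 8.90 and 9.86 CPM in sgLTN1, groups that did not overlap. Its log2 fold change of 0.33 (SE 0.15, 95% interval 0.01 to 0.65) did not pass over all genes (edgeR adjusted p = 0.300).

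Enzymes that can reduce quinones such as vitamin K outside the epoxide reductases showed no call in either direction in edgeR. Of 4 tested, 1 lay above 0, and the median log2 fold change was -0.30. DESeq2 called none either, but it gave no adjusted p to Vkorc1l1 (255 and 433 counts in sgNT and sgLTN1). Aifm2 (68 and 81 counts) and Cbr3 (63 and 95) were scarcer still, so no call there says nothing about them. Nqo1, a quinone reductase that can reduce vitamin K, read 42.9, 38.0 and 41.2 CPM in sgNT and 36.7, 30.6 and 26.3 CPM in sgLTN1. Its groups did not overlap, and the log2 fold change of -0.35 (SE 0.12) had adjusted p = 0.194 in edgeR. Cbr1, a carbonyl reductase that acts on quinones, read 31.2 ± 2.78 and 25.7 ± 0.756 CPM (-0.27, SE 0.09, edgeR adjusted p = 0.210).

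The relatives of calumenin in the CREC family of EF-hand proteins lay near Calu in size of difference. All 4 were tested, all 4 had a log2 fold change above 0, and none was called in edgeR or DESeq2. Rcn1 held fewer counts (197 and 341) than Vkorc1l1, which got no adjusted p in DESeq2, so no call there says nothing about Rcn1. The median of the 4 was 0.15, or 0.08 with the abundance trend removed. Sdf4, the Golgi member Cab45, read 385 ± 23.3 and 424 ± 16.3 CPM (0.14, SE 0.06), and the ER member Rcn1 11.7 ± 0.928 and 13.8 ± 1.09 CPM (0.23, SE 0.13).

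Genes of thiol oxidation in the ER, the redox setting in which the epoxide reductases work, were above 0 in 8 of 8 tested, with none called in edgeR and a median of 0.20, while DESeq2 called Ero1a and P4hb. This median fell to 0.05 with the abundance trend removed. P4hb, a protein disulfide isomerase, read 4890, 4972 and 4688 CPM in sgNT and 5563, 5819 and 5506 CPM in sgLTN1 (0.21, SE 0.05, edgeR adjusted p = 0.117). Its difference was 0.04 without the trend. Ero1a, the oxidase that recharges the isomerases, read 242, 223 and 213 CPM against 317, 306 and 253 CPM (0.37, SE 0.09, edgeR adjusted p = 0.117). Its sgLTN1 library 3 was the lowest of its group, and the difference was 0.29 without the trend.

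Other enzymes that modify secretory proteins after synthesis, namely hydroxylases, Furin and Sumf1, had log2 fold changes on both sides of the 0.34 of Ggcx. They ran from 0.12 for Sumf1, 0.14 for Plod3 and 0.20 for Plod1 up to 0.40 for Furin. All 8 were tested and lay above 0, with a median of 0.28, or 0.20 with the trend removed. None was called in edgeR, and DESeq2 called P4ha2, P4ha1 and Furin. P4ha2, a collagen prolyl hydroxylase subunit, read 719, 685 and 674 CPM in sgNT and 883, 913 and 784 CPM in sgLTN1 (0.31, SE 0.07, edgeR adjusted p = 0.0913). Its relative P4ha1 read 599 ± 40.8 and 751 ± 75.8 CPM (0.33, SE 0.08). Asph, which hydroxylates EGF-like domains such as those of Gla proteins, read 95.5 ± 3.26 and 113 ± 15.7 CPM (0.25, SE 0.10, edgeR adjusted p = 0.245). Furin, a protease that removes propeptides, read 49.8 ± 7.38 and 65.2 ± 1.70 CPM (0.40, SE 0.10, edgeR adjusted p = 0.126).

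**Figure D4:**
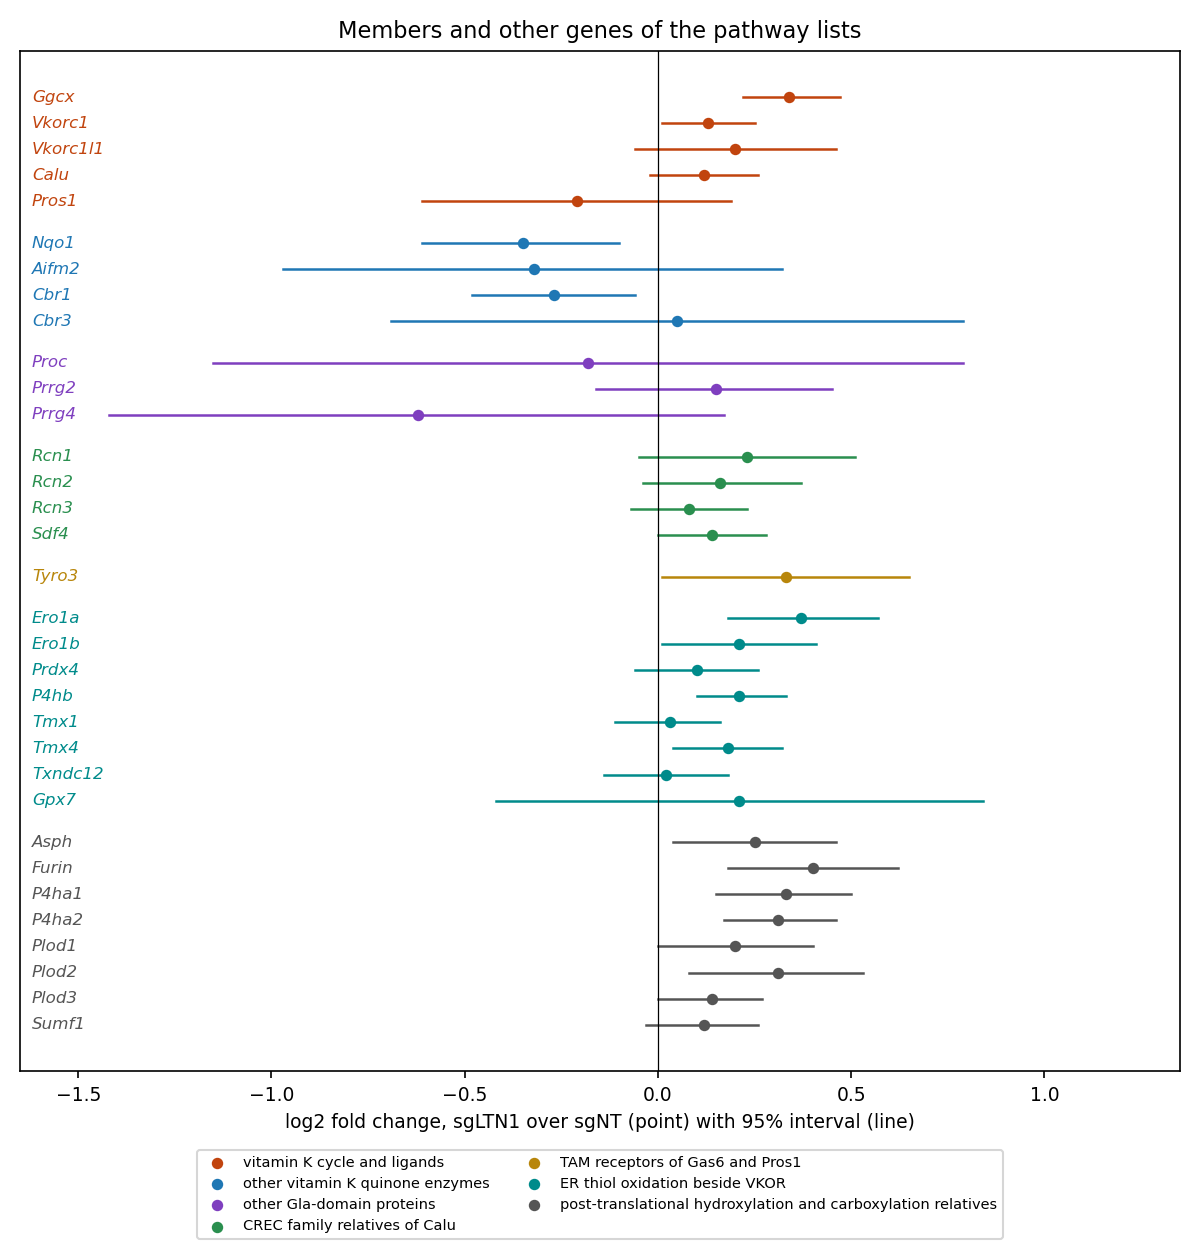
Log2 fold change of sgLTN1 over sgNT (points) with the 95% interval of the fit (lines) for the 5 tested genes of the vitamin K cycle and 28 tested genes of the pathway lists, coloured by list. The interval of Ggcx runs from 0.22 to 0.47; intervals are widest for the scarce Gla-protein and quinone-enzyme genes.

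Over the 6 lists together, 0 of 28 tested genes passed in edgeR. An unadjusted edgeR p under 0.05 was held by 14 of them, and by 15.6% of all tested genes. Above 0 lay 23 of them, with a median of 0.16, or 0.09 with the abundance trend removed. The lists were chosen with earlier results of these data known, so nothing is read from these counts. Ggcx was the only gene of the vitamin K cycle or of these lists past the threshold in this fit. DESeq2 called 5 of the list genes, all higher: P4ha2 (adjusted p = 0.00517), Ero1a, P4ha1, P4hb and Furin. Over all 12782 genes it called 211, of which 161 were higher. Without sgLTN1 library 3 edgeR also called 5, all higher, with Asph (0.36, adjusted p = 0.0283) and Plod2 (0.41, adjusted p = 0.0357) beside Ero1a, P4ha2 and P4ha1. Of the 13456 genes in that fit 333 were called, 191 of them higher. Asph, Furin and Plod2 were singled out after their values were seen.

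Genes beside the 6 in the genome could share reads with them, since the strand setting of the counting is not given in the sources used here. The nearest tested gene on each side of each member was taken from the RefSeq gene table. Untested genes and genes further off were not checked for overlap. Of those taken, only Mat2a, the methionine adenosyltransferase gene next to Ggcx, overlapped its member. It read 79.5, 64.7 and 71.8 CPM in sgNT and 62.7, 62.5 and 63.1 CPM in sgLTN1, lower where Ggcx was higher (-0.19, SE 0.09, edgeR adjusted p = 0.315). On the other side of Ggcx lies Vamp8, at 11.5 ± 1.07 and 10.2 ± 2.09 CPM. Vkorc1 lies between Prss53, a serine protease gene at 539 ± 26.8 and 554 ± 33.3 CPM (0.04, SE 0.06), and Bckdk, at 13.9 ± 1.18 and 14.1 ± 1.18 CPM. The neighbours of the other 4 genes had log2 fold changes from -0.32 (Epha3, beside Pros1) to 0.06 (Gusb, beside Vkorc1l1), and none was called in edgeR.

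Among 7513 other tested genes with a mean of at least 10 CPM, those whose log2 CPM followed Ggcx most closely over the 6 libraries were Agt (angiotensinogen, Pearson r = 0.993), Tmed9 (a p24 cargo receptor of the early secretory pathway, 0.993), Slc39a11 (a zinc transporter, 0.992), Slc22a23 (an organic ion transporter relative, 0.991) and Mboat7 (a lysophospholipid acyltransferase, 0.990). The likeness includes the difference between the groups, which all 5 share with Ggcx: in each, all sgLTN1 libraries were above all sgNT libraries. Agt and Slc22a23 were themselves called (edgeR adjusted p = 0.0119 and 0.0272), and the other 3 were not. Agt stood at 622 ± 14.5 and 847 ± 38.6 CPM and Tmed9 at 362 ± 8.77 and 414 ± 6.22 CPM. Slc39a11 stood at 27.4 ± 1.28 and 37.6 ± 0.407 CPM, which differed by 0.45 on the log2 scale (SE 0.08, edgeR adjusted p = 0.0633).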

How the data were processed

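The authors deposited whole-number read counts per gene for 6 libraries. The submitters' processing notes name featureCounts 2.12.3, STAR 2.7.11a and Bowtie2 2.5.4 with build GRCm39, besides UMI-tools 1.1.2, fastp 0.23.4 and SAMtools 1.9. Annotation, strand, multiple alignments and footprint selection were not given in the sources used here. The authors' deposited table of DESeq2 (1.38.3) holds, per the file headers, log2 fold changes, a mean normalized count as signal, the Wald statistic as score, and p-values.

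Counts were tested in R 4.3.3 with edgeR 4.0.16 (filterByExpr, TMM, quasi-likelihood test, group as the only term, Benjamini-Hochberg over 12782 genes, threshold 0.05). CPM values are counts over TMM-scaled library sizes. All columns of sample values were used. Replicate pairs differed beyond sampling noise (chi-square per degree of freedom at least 2.55). Tested on simulated data for sgLTN1 against sgNT (12612 genes), the fit called 16.0% of 1.3-fold, 61.7% of 1.5-fold and 86.0% of 2-fold changes, and 7 of 129 calls were false. The simulation gave genes of like abundance the same dispersion. It held no outlying library and no trend of fold change with abundance, so these shares need not hold for the real libraries.

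The 6 genes, the lists and the rule for named genes were chosen with earlier results of these data known. The rule takes the 6 genes, list genes past the threshold or otherwise the 2 of smallest p per list, the nearest tested neighbours, the 5 genes most correlated with Ggcx, and Ltn1. An order of levels per coding length had been planned and was not made, and 1 gene planned for a list was left out and is not reported here. RefSeq tables (GRCm38.p6) matched 19471 symbols, all 6 genes included, and gave neighbours and upstream sequence only.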

Additional observations from a re-analysis of the deposited data

How the results depend on the processing

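Over 8 other settings the log2 fold change of Ggcx ran from 0.24 to 0.36, and it lost its call with scaling by total counts (0.27) and with the abundance trend removed (0.24), so that 0 members were called in both. Leaving out 1 library gave 0 to 1 called members, 0 to 5 list genes and 4 to 333 genes in all, against 23. The 333 were called without sgLTN1 library 3 and the 4 without sgLTN1 library 2. Each of these fits held 1 library fewer than the main fit. Other counts that moved beyond 1.5 times were 42 genes with total counts, 211 with DESeq2, 222 with no filter on low counts and 609 with the replicate block. List genes called numbered 5 with DESeq2, 4 with no filter and 7 with the replicate block, against 0. The cause of these moves was not tested. Vkorc1, Vkorc1l1, Calu and Pros1 kept their direction and stayed uncalled in all 8 settings and with each library left out. DESeq2 gave Vkorc1l1 and Pros1 no adjusted p, so these 2 could not be called in that setting. Gas6 had a fitted value only with no filter (-0.33, SE 0.56).

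The replicate numbers were not taken to pair the libraries: deviations of same-numbered libraries correlated at -0.05, 0.07 and 0.09, and not every library correlated best with its own number. These correlations were taken over all tested genes, scarce ones included, and cannot exclude a pairing. With the replicate block 609 genes were called, against 23 without it. Ggcx then stood at 0.35 (edgeR adjusted p = 0.00553), with 1 member called. The order of member levels could not be computed, as coding lengths were not used here, so its alternatives were not run. Depth left Gas6 untested, with 14 and 16 counts in the groups.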
